A study of Mus musculus with 2 samples.

Results

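The early growth response (Egr) and Nr4a genes encode transcription factors that cells switch on within minutes of a stimulus, before any new protein has been made. The 8 genes described here are Egr1, Egr2 and Egr3, their corepressor genes Nab1 and Nab2, and Nr4a1, Nr4a2 and Nr4a3. They were taken by name: every non-control probe whose accession resolved to one of these symbols was kept, which gave 10 probes on 19 spots of 43020 non-control spots, and 8 genes of 20659 named on the array. Of the 8 genes, 6 had a probe well above background on both arrays, by the flag of the scanner software, against 15022 of all named genes. Egr3 was well above background on the miR-122 array only, and Nr4a3 on neither array.

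The data are 2 one-colour Agilent mouse arrays of Cy3-labelled total RNA from cultured RAW246.1 cells, which the labels call macrophages. One array is of cells given PBS, the mock treatment, and the other of cells given synthetic miR-122 at 5 μg/mL, a microRNA made mainly by hepatocytes. Both cultures were grown in DMEM, and the labels give neither the time of exposure nor a delivery agent. The series asks how miR-122 from the liver bears on the inflammatory activation of alveolar macrophages, and a cultured line given a synthetic microRNA stands in for both here. The labels give both samples the same treatment text, and the title of the miR-122 sample says that it went without miR-122, so the groups rest on the source names and descriptions.

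With 1 array per group there is no replicate check, no test and no SD between cultures for any difference below. The arrays sat at different positions of 1 slide, so the position of an array and its treatment cannot be told apart. In RNA from a whole culture, fewer cells expressing a gene and less RNA per cell cannot be told apart either. The PBS array detected 71.8% of its 39429 non-control probes above background and the miR-122 array 69.9%, with 0 saturated spots. Of 12 macrophage markers 11 had a probe, of which 10 passed the background flag with PBS and 11 with miR-122. Their summed signal before scaling was 100492 with PBS and 73906 with miR-122, with Csf1r at 46202 and 22246 the largest part. After scaling, the 10 on both arrays had a median log2 difference of 0.11 at their brightest probes. Of these, 1 was past 2-fold upward, Fcgr1 at 3.34, and 0 downward, while Csf1r, Adgre1, Itgam and Lyz2 lay between -0.85 and -0.58. Other probes differed by -0.06 and -0.60 for Csf1r, by -0.12 and 0.36 for Itgam and by -0.33 for Adgre1. For 7 lists of markers of other cell types, each marker was read at its brightest probe. Their summed signal ran from 82.8 to 2219 with PBS and from 93.6 to 2069 with miR-122. At these probes 0 genes on both arrays were past 2-fold. A second probe of the endothelial marker Kdr, also on both arrays, read 51.8 and 132, a log2 difference of 1.63. The part of the markers of other cell types in the differences below was not tested.

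EGR proteins are zinc finger factors that bind GC-rich sites, and Egr1 is the member most often used as a sign that the ERK kinases have been active. ERK phosphorylates ELK factors, which sit with the serum response factor SRF on CArG boxes in the promoters of these genes. NAB1 and NAB2 bind EGR1 and EGR2 and recruit the NuRD complex, which holds back EGR target genes. NR4A proteins are orphan nuclear receptors that act without a known ligand. Their genes answer to CREB and MEF2, and in macrophages they are known for restraining inflammatory transcription.

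Promoter stretches are printed for the 4 members whose windows held a CArG box or several TGACG matches, 2 of the elements through which such genes are known to be read. The chromosome that carries Egr1 was left out of the RefSeq promoter sequences of build GRCm38.p6 before the search, so Egr1 could not be matched. The sequences kept matched 6 of the 8 members by symbol, with 10 start sites, and held none for Egr3. The 250 bases before each start were searched on both strands for the CArG box, for TGACG, which is the core of a CREB site, for the full site TGACGTCA, which contains TGACG, for GCGNGGGCG, a site for EGR proteins, for AAAGGTCA, the site of an NR4A monomer, and for the NF-kB motif. Capitals mark each CArG box and each TGACG on either strand, where the other strand reads CGTCA. The Egr2, Nr4a1 and Nr4a3 stretches are 30 bases around a neighbouring pair of matches, and for Nr4a2 the whole window is given because its start is the outer edge of the gene.
Egr2, chr10:67537793-67537822, plus strand: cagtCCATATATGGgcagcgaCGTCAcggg
Nr4a1, chr15:101266611-101266640, plus strand: tgCGTCAatggaaccccgcgtgCGTCAcgc
Nr4a3, chr4:48045084-48045113, plus strand: tcccatgtCGTCAcatTGACGtctcgcatt
Nr4a2, chr2:57124004-57124253, minus strand: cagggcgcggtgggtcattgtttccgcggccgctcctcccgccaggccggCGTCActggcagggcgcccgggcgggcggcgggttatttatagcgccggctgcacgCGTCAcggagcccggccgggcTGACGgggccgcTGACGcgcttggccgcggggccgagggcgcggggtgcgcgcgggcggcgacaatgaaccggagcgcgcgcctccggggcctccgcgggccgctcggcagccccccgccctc

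Nr4a1, Nr4a2 and Nr4a3 each held 4 matches to TGACG, a sequence found at least once in 17.8% of the 32851 promoter windows searched. All shares of windows given here are of windows with a match, and the share with several matches was not counted. The 250-base window around the printed Egr2 stretch held 1 CArG box, a motif found in 1.47% of all windows, and 2 matches to TGACG, 1 of them in the stretch. A window of another Egr2 start held a different CArG box. Nab1 held 3 matches to GCGNGGGCG, the EGR site, which 4.70% of all windows held, and Nr4a1 and Nr4a2 held 1 each. The NF-kB motif, found in 7.25% of windows, was matched once in Nab1 and by 2 overlapping stretches at another start of Egr2. Nab2 held no match to any of the 6 motifs, and no member held TGACGTCA or AAAGGTCA in the windows searched. These matches describe letters and not binding, which was not measured.

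The EGR genes went in opposite directions. Egr1, a zinc finger factor that growth factors and stress induce in many cell types, had a processed signal of 2481 ± 248 intensity units with PBS and 5008 ± 501 with miR-122, where the error is the one that the scanner software assigns to a spot. The miR-122 array was the brighter one, and the software errors of the spots did not overlap. For all bright spots of the members this error was close to a fixed share of the signal. Whether such errors overlap therefore restates the size of the ratio and is no separate measure of precision. The signal was 2.02-fold higher before any scaling. Each array was then scaled to its 75th percentile over non-control probes, because the miR-122 array had a 75th percentile lower by 0.28 on the log2 scale. After scaling, Egr1 had a log2 difference of 1.29 ± 0.20, miR-122 minus PBS, or 2.45-fold higher, where the error combines both software errors and covers neither cultures nor arrays.

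Egr2, a factor best known from myelinating Schwann cells and also expressed by macrophages, had a signal of 674 ± 67.4 with PBS and 223 ± 22.4 with miR-122. Here the PBS array was the brighter one and the errors again did not overlap. The log2 difference was -1.32 ± 0.20 after scaling, or 2.50-fold lower on the miR-122 array, and 3.03-fold lower before scaling. The distance between the differences of Egr1 and Egr2 does not depend on how an array is scaled by a constant. It was 2.61 ± 0.29 on the log2 scale, so the ratio of Egr1 to Egr2 signal shifted 6.11-fold between the arrays. Of the 9 other processing choices, those that scale by a constant or change the handling of flagged spots and probes could not move this distance. It was 2.34 with normexp background correction, 2.54 with quantile normalization, 2.59 with loess and 2.54 in the authors' values.

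Egr3, a close relative of Egr2, was near the detection limit. Its only spot read 7.18 ± 2.46 on the PBS array, not well above background, and 13.0 ± 2.88 on the miR-122 array, just above the lowest signal of 11.5 that passed there. Set against 10.8, the dimmest signal that passed the background flag with PBS, the scaled Egr3 level with miR-122 was 1.46-fold higher. That value takes the miR-122 spot without its error. The measured log2 difference of Egr3 was 1.13 ± 0.59, with a 95% interval from the software errors of -0.02 to 2.29. It is not given as a fold, and its direction was not secured. Egr4, the remaining EGR family gene and not one of the 8, was not well above background on either array, at 2.36 and 2.90.

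**Figure D1:**
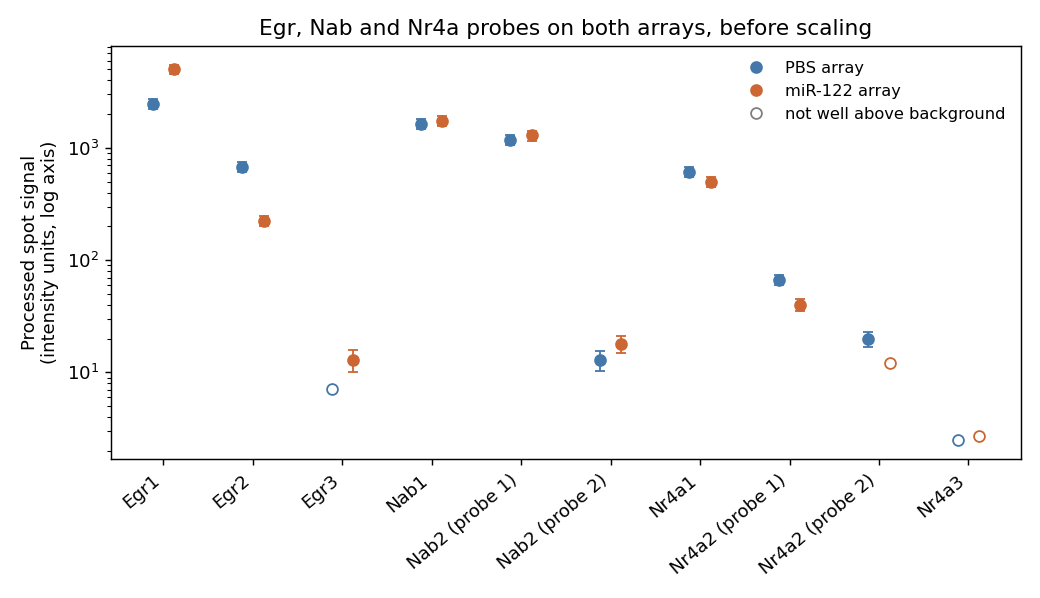
Processed spot signal of each probe on a log axis before scaling, with PBS in blue, miR-122 in orange and open symbols for signals not well above background. Bars are the scanner software's error for a spot and are drawn only for signals well above background; Egr1 was brighter on the miR-122 array (5008 against 2481) and Egr2 on the PBS array (674 against 223), while the pairs of Nab1 and of the brighter Nab2 probe lay close together.

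The corepressor genes differed little. Nab1 had signals of 1635 ± 164 with PBS and 1734 ± 173 with miR-122, and the errors overlapped. Its log2 difference after scaling was 0.36 ± 0.20, which 23.5% of all 15022 genes matched or exceeded. Nab2, itself known as a gene that EGR proteins induce, had 2 probes to different transcript records. The brighter probe read 1186 ± 119 and 1291 ± 129, PBS before miR-122, which also overlapped, with a log2 difference of 0.40 ± 0.20. The dimmer probe read 13.0 ± 2.64 and 18.0 ± 3.14 and differed by 0.74 ± 0.39. When the genes were cut into 10 bins of equal size by signal, that probe lay in the dimmest bin, where the median log2 difference was already 0.34. Nab1 and the brighter Nab2 probe differed from each other by 0.04 ± 0.29 in their log2 differences, well inside the error. Against Egr1, their difference was smaller by 0.93 ± 0.29 for Nab1 and by 0.89 ± 0.29 for Nab2.

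Of the NR4A genes, Nr4a1 was level and Nr4a2 lower, both inside 2-fold, and Nr4a3 was not detected. Nr4a1, which encodes NUR77, the member most studied in macrophages, read 616 ± 61.6 with PBS and 498 ± 49.9 with miR-122. These errors just failed to overlap before scaling, and the log2 difference after scaling was -0.03 ± 0.20, close to 0. Nr4a2, which encodes NURR1, a factor also needed by dopamine neurons, read 66.7 ± 7.03 with PBS and 39.99 ± 4.71 with miR-122 at its brighter probe. The PBS array was the brighter one there, and the log2 difference after scaling was -0.46 ± 0.23, or 1.38-fold lower. The second probe of Nr4a2 read 19.9 ± 3.10 on the PBS array and 12.2 ± 2.90, not well above background, on the miR-122 array. Its measured log2 difference after scaling was -0.42 ± 0.41, about the size of its error. With normexp background correction the log2 difference of Nr4a2 was -0.17.

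Nr4a3, which encodes NOR1, is the only member printed 10 times on each array, and all of its spots were dim. The spots ran from 2.18 to 2.78 on the PBS array with a median of 2.49, and from 2.511 to 3.008 on the miR-122 array with a median of 2.74. None of the 10 spots was well above background on either array. The 153 negative control spots had medians of 2.33 and 2.59 on the same arrays, so the Nr4a3 medians lay close to those of spots with no target. The scanner software gave these spots errors of 2.175 to 2.995, about as large as the signals, and no fold is given. Nr4a3 transcript was not detectable at this signal, which does not show that it was absent.

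The members' differences were read against those of all genes. Of the 6 members on both arrays, 1 was at least 2-fold higher, Egr1, and 1 at least 2-fold lower, Egr2. Among all 15022 genes, 4.57% passed 2-fold upward and 1.78% downward. The median difference of the 6 members was 0.17, with 3 positive and 3 negative, and that of all genes was 0.09, with 60.3% positive. A difference as high as that of Egr1 or higher was found in 387 genes, 2.58% of all, and one as low as that of Egr2 or lower in 118 genes, 0.786% of all. The difference of Nr4a2 was matched or passed downward by 8.85% of the genes, and that of the brighter Nab2 probe upward by 21.0%. Different probes of the same gene disagreed with a pooled SD of 0.30 over 3575 genes with several probes, and spots of the same probe with one of 0.18 over 281 probes. The differences of Egr1 and Egr2 were larger than both SDs, and that of Nr4a1 was smaller. Both SDs come from within the same 2 arrays, hold no spread between cultures or arrays and give no measure of significance.

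**Figure D2:**
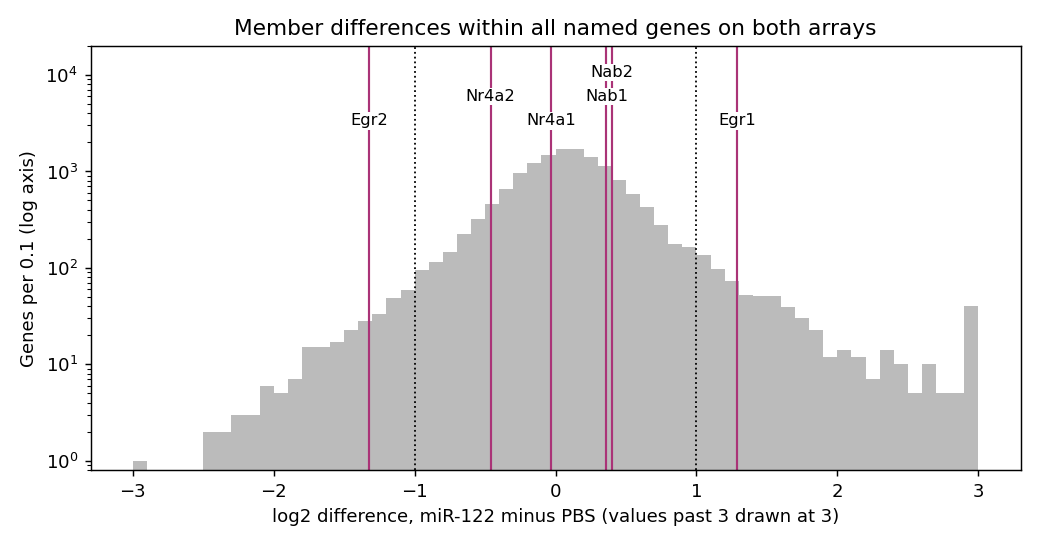
Number of named genes in each bin of log2 difference, miR-122 minus PBS, for the 15022 genes on both arrays, with a log count axis. Dotted lines mark 2-fold and purple lines the 6 members; Egr2 at -1.32 and Egr1 at 1.29 lay outside the dotted lines, and the other 4 between -0.46 and 0.40.

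Genes of similar signal gave the same picture for Egr1 and Egr2. In the bin of 1502 genes with signals like those of Egr1 the median log2 difference was 0.03 and 5.99% were at least 2-fold higher. In the bin that holds Egr2 the median was -0.03 and 3.33% were at least 2-fold lower. Nr4a2 lay in a bin with a median of 0.14, which its own difference of -0.46 opposed.

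The directions of the 6 members held under the 9 other processing choices tried, and their sizes moved. Egr1 was at least 2-fold higher under all 9, from 1.11 with median scaling to 1.29. Egr2 was at least 2-fold lower under all 9, from -1.497 with median scaling to -1.15 with normexp. Dropping the filter on dim probes and taking the mean over probes could not move these genes, which have 1 probe each. Median scaling moved the median of all genes by -0.18, and quantile normalization moved it by -0.12. Median scaling also moved the split of all genes past 2-fold, to 3.14% upward and 3.04% downward. With it, Nab1 stood at 0.19, Nab2 at 0.22, Nr4a1 at -0.20 and Nr4a2 at -0.64. In the authors' deposited log2 values Egr1 was 2.26-fold higher and Egr2 2.57-fold lower. The reference genes Actb, Gapdh and Hprt differed by 0.21, 0.18 and -0.25 with the 75th percentile scaling; Actb turned sign with loess, and Gapdh with loess, quantile normalization and the authors' values. Nab1 at 0.36 and Nab2 at 0.40 lay above all 3 reference genes on that scale.

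**Figure D3:**
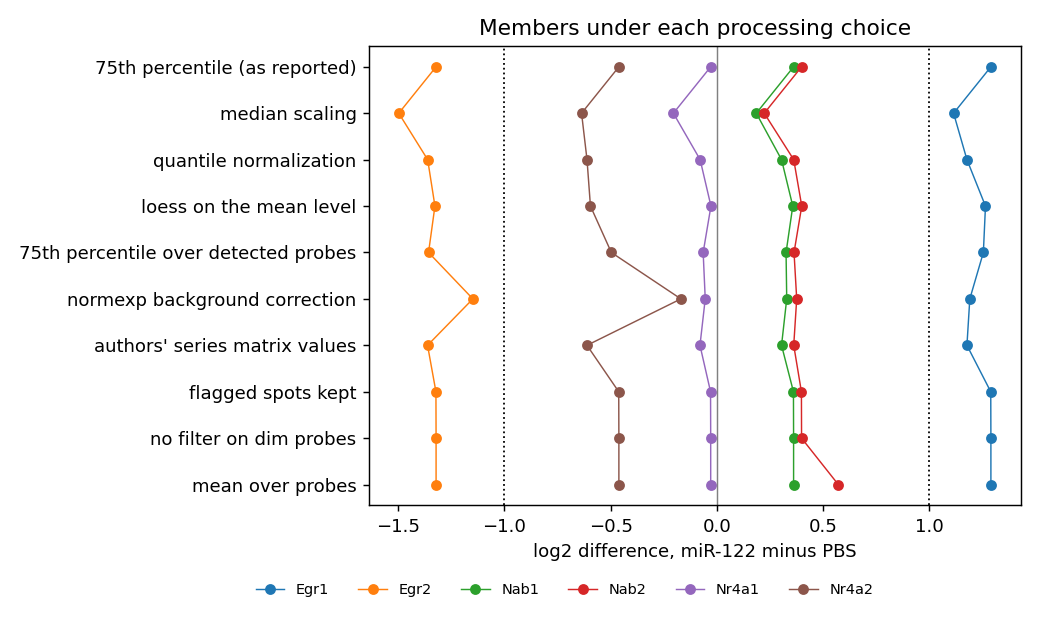
Log2 difference, miR-122 minus PBS, of the 6 members on both arrays under the reported scaling and 9 other processing choices, 1 per line. Dotted lines mark 2-fold; Egr1 stayed to the right of its line (lowest 1.11) and Egr2 to the left (highest -1.15), and Nr4a2 moved from -0.64 to -0.17 between choices.

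The genes that carry signals to the Egr promoters were looked at next. This list and those that follow were chosen with earlier results of these data known. A list's share set beside that of all genes is therefore description only. In a list of 21 genes from RAF kinases through ERK to ELK and SRF, 20 were on both arrays, and 0 were at least 2-fold higher or lower, a count near the shares of 4.57% and 1.78% for all genes. Their median difference was 0.03, beside 0.09 for all genes, and turned sign in 7 of the 9 other choices. The kinase gene Mapk3, which encodes ERK1, differed by 0.20, and Srf by -0.14. These are transcript levels, and the phosphorylation by which the pathway acts was not measured.

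The CREB and MEF2 list, which feeds the Nr4a genes, had 3 of 18 genes at least 2-fold higher, 0 lower and a median of 0.21. Beside these stand shares of 4.57% and 1.78% and a median of 0.09 for all genes. Hdac7, which encodes a deacetylase that binds MEF2 factors, had signals of 520 and 1037, PBS before miR-122, and a difference of 1.27. Crem, which encodes a CREB relative with both activating and repressing forms, read 329 and 648 and differed by 1.25. A second probe of Crem differed by 0.97. Mef2a read 3696 and 6422 and differed by 1.07, but a second probe by 0.35, and the mean over both was under 2-fold, as was Mef2a after quantile normalization, in the authors' values and with median scaling. Creb1 differed by 0.26.

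The lists of genes through which NAB and NR4A proteins act are short, and counts of 0 in them are near the shares of all genes. Of 13 genes for NuRD subunits 12 were on both arrays, 0 were past 2-fold and the median was 0.02, which turned sign in 5 of the 9 other choices. Hdac1, which encodes a deacetylase of the complex, had the highest difference, 0.66, and Chd4, its remodelling ATPase gene, differed by 0.02. Of 7 genes for NR4A partners and corepressors, 0 were past 2-fold and the median was 0.09, which turned sign with median scaling. Rxra, which encodes a retinoid receptor that pairs with NR4A proteins, differed by 0.47 at its brighter probe and by -0.35 at the other.

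Reported target genes were mostly on the positive side. Of 24 reported EGR1 targets 23 were on both arrays, 4 of them at least 2-fold higher and 0 lower, with a median of 0.32 and 19 positive differences. All genes also leaned upward, with a median of 0.09 and 60.3% positive, against 82.6% of these targets. Past 2-fold upward were 17.4% of the targets and 4.57% of all genes, and past it downward 1.78% of all genes. The tissue factor gene F3, which starts blood clotting, read 150 with PBS against 392 with miR-122, 3.16-fold higher. A second probe of F3 was 2.10-fold higher. The cytokine gene Tnf read 7178 and 16662 and was 2.81-fold higher. The G1 cyclin gene Ccnd1 and the cell death gene Bcl2l11 were 2.14-fold and 2.13-fold higher. With median scaling the count was 2, because Ccnd1 and Bcl2l11 were then under 2-fold, at 1.89-fold each. Ccnd1 was also under 2-fold with quantile normalization and in the authors' values, at 1.97-fold in both, and Bcl2l11 with normexp, at 1.98-fold. Cdkn1a, which encodes a cell cycle inhibitor, was 1.99-fold higher at its brighter probe, just short of 2-fold, and 1.32-fold higher at the other. Many of these genes also answer to NF-kB and other factors, and the part of EGR1 in their differences was not tested.

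Of 13 reported NR4A targets 12 were on both arrays, 4 of them at least 2-fold higher, 0 lower and all 12 positive, with a median of 0.59. Among all genes 4.57% passed 2-fold upward and 60.3% were positive, with a median of 0.09. The list mixes genes that NR4A proteins activate with genes that they restrain, so a shared direction has no single reading. Il6, a cytokine gene, read 32.5 and 1837, a difference of 6.10, or 4.55 with normexp. The cyclin gene Ccnd2 read 29.0 and 72.6, a difference of 1.60, and the chemokine gene Ccl2 read 26533 and 64367, a difference of 1.56. Bcl2l11 is on this list too. With normexp the count was 2, and Ccnd2 and Bcl2l11 were under 2-fold, at 1.67-fold and 1.98-fold.

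**Figure D4:**
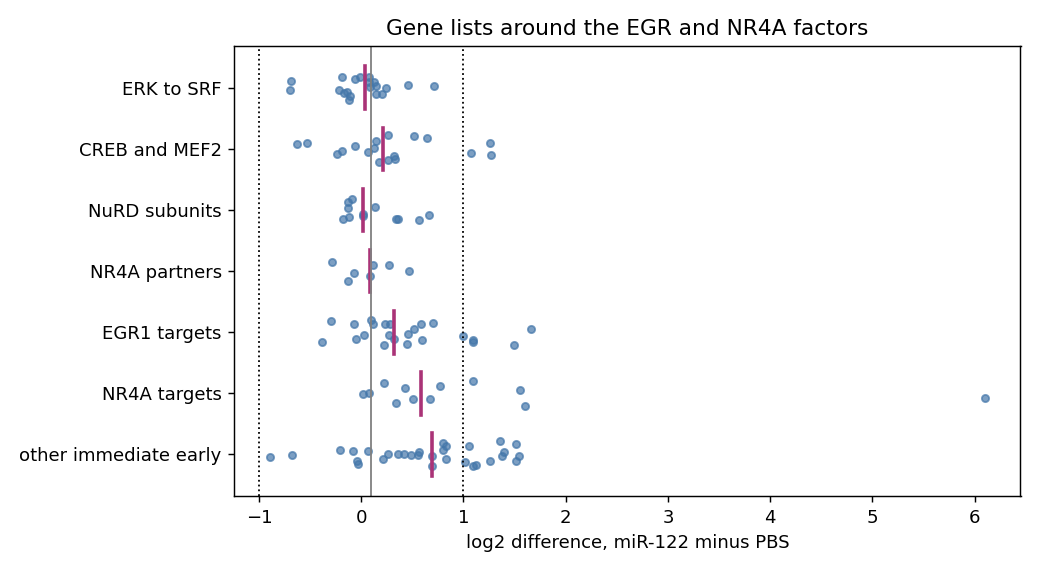
Log2 difference, miR-122 minus PBS, of each gene on both arrays in 7 lists, 1 point per gene. Purple bars are the list medians, the grey line the median of all genes (0.09) and dotted lines 2-fold; the lists of signalling genes and partners had medians between 0.02 and 0.21, and the other immediate early genes 0.70.

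Other immediate early genes give the setting for the members. Of 32 listed, 31 were on both arrays, 11 of them at least 2-fold higher and 0 lower, with a median of 0.70 and 25 positive differences. That is 35.5% past 2-fold upward and 80.6% positive, where all genes had 4.57% and 60.3%. Since the list was chosen with earlier results of these data known, its choice may have a part in this contrast. Csrnp1, a nuclear factor gene, read 1827 and 4383, a difference of 1.54. Dusp6, which encodes a phosphatase that switches ERK off, differed by 1.52, the stress factor gene Atf3 by 1.51 and the phosphatase gene Dusp1 by 1.39. Egr1 sat among them, with 6 of the 31 genes higher. Egr2 was lower than all 31, and Nr4a2 lower than 29. With median scaling 7 of the 31 were at least 2-fold higher and 1 lower, and with normexp 7 were higher. As markers of activation, Ifnb1 and Il1b, which encode interferon beta and interleukin 1 beta, differed by 7.03 and 0.99 between the same arrays, and by 5.47 and 0.91 with normexp.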

How the data were processed

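Per the file headers, each deposited scanner file is output of Agilent Feature Extraction 11.0.1.1. It gives per spot a processed intensity, with background subtracted and spatial trend removed but no step between arrays, the software's error, and median intensities of spot and background. The authors' deposited series matrix holds log2 values. How these were normalized is not stated in the labels. Its columns had a Pearson r of 0.997 with the log2 signal of their own array, against 0.985 for the other array, and both had a median of 5.17 over the non-control probes, so scale and direction were clear and no centring by gene was seen.

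Control spots and spots flagged as outliers were left out. Log2 processed signals were averaged over the spots of a probe, and the 75th percentile of each array was subtracted. Probe accessions were matched without versions to RefSeq genes of GRCm38.p6, used for names, and 27234 of 39429 probes matched. Among probes that passed the background flag on 1 array or more, the brightest stood for the gene, which was counted where that probe was so on both. A fold against a dim array is a bound, which leaves out the error of the brighter spot. Errors of log2 differences combine the software's relative errors of both spots. No test was run with 1 array per group; differences were counted at 2-fold, with 1.5-fold and 4-fold as alternatives.

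Alternatives were median scaling, quantile normalization, loess with a span of 0.3, the 75th percentile over detected probes, normexp with an offset of 50 on median spot intensities (no mean intensity is among the columns used), the authors' values, flagged spots kept, no filter on dim probes, and the mean over probes. The members and all gene lists were chosen with earlier results of these data known, and the lists were written from general knowledge. Text names all members, up to 4 genes past 2-fold with the largest difference in each list, Egr4, Ifnb1, Tnf, Il1b and 3 reference genes; Mapk3, Srf, Creb1, Hdac1, Chd4, Rxra and Cdkn1a, and the genes of the closing section, were named after their values were seen. Promoter windows are RefSeq's, GRCm38.p6, without the chromosome that carries Egr1. R 4.3.3, limma 3.58.1, Python 3.11.15, numpy 2.4.6 and pandas 2.3.3 were used. The counting was tested on simulated data.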

Additional observations from a re-analysis of the deposited data

How the results depend on the processing

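No paired analysis was possible because the groups share 1 replicate number only, with 1 array each. For values with no test, a move was counted where it exceeded the spread of 0.30 between probes of a gene. By that measure the differences of the 6 members on both arrays kept their sign and moved less than 0.30 under the 9 other choices. Not every choice could move every member. Without a filter on dim probes 2 members were at least 2-fold higher, since Egr3 then passed at 1.13, and at 4-fold 0 were higher and 0 lower. Median scaling left 2 EGR1 targets and 7 other immediate early genes at least 2-fold higher and 1 lower, and normexp left 2 NR4A targets and 7 other immediate early genes higher. The median of the members was between -0.01 and 0.38 over the 9 choices, and changed sign in 1. Low signal over background limits Egr3, Nr4a3, the second Nab2 probe and both Nr4a2 probes, and the number of arrays limits every comparison.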

Other observations

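Several genes of the signalling lists stood apart from their list without passing 2-fold. Map2k1, which encodes the ERK kinase MEK1, read 2578 with PBS against 3474 with miR-122, a log2 difference of 0.71. Braf, which encodes a kinase upstream of MEK, read 321 and 165, a difference of -0.69, and Rps6ka5, the gene of a kinase that phosphorylates CREB and histone H3, read 162 and 82.7, also a difference of -0.69. The CREB coactivator gene Crtc1 differed by -0.63 and Hdac5, which encodes a MEF2-binding deacetylase, by -0.53, while the related Hdac7 differed by 1.27. Among the other immediate early genes the lowest difference was that of Fos, which read 2424 and 1078 and differed by -0.89. Fosl2, next in order, differed by -0.68 at its brighter probe and by 0.77 at the other, so its direction depends on the probe.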
